A study of Mus musculus with 6 samples.

Results

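The simple epithelial keratins *Krt7*, *Krt8*, *Krt18* and *Krt19*, the stratified-epithelium keratins *Krt14* and *Krt17*, and the mesenchymal filament gene *Vim* were examined in undifferentiated mouse embryonic stem cells (mESCs). The 7 genes were chosen by name, as rows of the deposited table of all probe sets with a listed symbol, an older alias such as Krt2-8 or the gene identifier, and all 7 were found among 15357 named genes. They are measured by 12 of the 33142 probe sets of that table, where a probe set is a group of short oligonucleotides on the array that reports 1 transcript. A gene is given below by its probe set with the highest mean, called its brightest probe set, and the others are reported beside it.

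Expression was measured on 3 Affymetrix arrays of wild type (WT) mESCs and 3 of *Alkbh1*-/- mESCs. Both genotypes were of the C57BL/6 background, untreated, at passage 8 and at day 0 of differentiation, in medium with the self-renewal factor LIF. The lines came from littermate embryos of heterozygous matings and were grown on irradiated mouse embryonic fibroblasts, whose RNA can be part of the sample. The arrays of each genotype carry 1 shared line name, C3 for WT and C10 for *Alkbh1*-/-, and the labels do not say whether they are separate cultures. Each value below is the authors' mean over arrays, with no spread, since single-array values were not used here, and no difference has a test.

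Keratins form filaments from pairs of an acidic type I chain and a basic type II chain, and neither chain assembles alone. *Krt8* (type II) and *Krt18* (type I) are the pair of simple, single-layered epithelia and are the first keratins to appear in the embryo, in the trophectoderm and later in the extraembryonic endoderm. *Vim* encodes vimentin, which assembles with itself, belongs to mesenchymal cells and fibroblasts, and is also made by many cultured cells.

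In *Alkbh1*-/- mESCs, the keratin pair *Krt8* and *Krt18* stood at about the same distance below WT, 2.92-fold and 2.77-fold lower in the authors' genotype means. *Krt7* was 1.65-fold lower, and *Krt17* was 1.76-fold higher. For *Krt14*, *Krt19* and *Vim*, no means by genotype were analysed here, and their values are means over all 6 arrays.

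The promoters of the 3 keratin genes that were lower are shown because *Krt8* and *Krt18* neighbour each other and had differences of similar size. All 3 genes are on chromosome 15, and between *Krt8* and *Krt18* the annotation places 2 genes, 0 of them protein coding, although *Krt18* is a type I keratin and its relatives *Krt14*, *Krt17* and *Krt19* lie on chromosome 11. *Krt7* is separated from *Krt8* by 31 genes, 23 of them protein coding. The sequences are from RefSeq, build GRCm38.p6, 5′ to 3′ along the gene, from 250 bases before to 30 bases after the annotated start. *Krt8* is chr15:102004313-102004592 on the minus strand, *Krt18* is chr15:102027966-102028245 on the plus strand and *Krt7* is chr15:101412153-101412432 on the plus strand. Capitals mark matches to TATAAA, the core of the TATA box, and to GGGCGG, the GC box, on either strand.
Krt8: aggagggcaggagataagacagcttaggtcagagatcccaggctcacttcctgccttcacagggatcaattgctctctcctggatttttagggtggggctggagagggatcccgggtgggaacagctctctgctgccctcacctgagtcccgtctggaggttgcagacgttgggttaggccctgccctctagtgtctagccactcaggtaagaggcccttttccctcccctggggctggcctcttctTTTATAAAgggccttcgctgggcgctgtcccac
Krt18: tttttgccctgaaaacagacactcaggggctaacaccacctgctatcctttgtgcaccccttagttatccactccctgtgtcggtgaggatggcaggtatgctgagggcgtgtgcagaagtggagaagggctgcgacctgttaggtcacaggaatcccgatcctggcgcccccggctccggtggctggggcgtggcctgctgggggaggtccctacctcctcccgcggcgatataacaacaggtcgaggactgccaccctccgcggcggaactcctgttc
Krt7: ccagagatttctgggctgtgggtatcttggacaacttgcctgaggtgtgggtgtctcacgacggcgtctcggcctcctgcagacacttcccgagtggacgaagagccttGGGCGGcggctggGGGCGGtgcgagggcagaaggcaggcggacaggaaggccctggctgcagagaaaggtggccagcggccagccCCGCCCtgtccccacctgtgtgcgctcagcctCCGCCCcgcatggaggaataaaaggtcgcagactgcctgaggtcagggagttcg
The *Krt8* window holds TATAAA as 2 overlapping matches, 1 on each strand, that begin 3 and 1 bases before the annotated start, and the *Krt18* window holds neither motif. The *Krt7* window holds GGGCGG at 4 places, 2 on each strand, and no TATAAA. Over all 32851 promoter windows of this length, 13.1% held TATAAA and 34.7% held GGGCGG. The AP-1 motif TGANTCA, in 7.46% of the windows, was in 0 of the 5 members' windows in the table, those of *Krt7*, *Krt8*, *Krt14*, *Krt18* and *Vim*. *Krt17* and *Krt19* were not among the promoters. The *Krt8* and *Krt18* windows had no match to these motifs in common, with only exact matches counted. Whether the promoters had a part in their differences was not tested.

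The means over all arrays are on the log2 scale of the robust microarray analysis algorithm. Over all probe sets of the table, these means ran from 3.22 to 14.67 with a median of 6.31. They rank how bright a probe set was, and the brightness of different probe sets does not order the abundance of their transcripts, since each binds with its own strength. *Krt8* had a mean log2 value of 8.37 at its brightest probe set, 1420647_a_at, and of 8.03 and 7.92 at 1435989_x_at and 1423691_x_at. *Krt18* had a mean log2 value of 8.34 at its single probe set, 1448169_at. All 4 of these probe sets were above the median of the table. *Krt19* (1417156_at), a type I keratin of ducts and other simple epithelia, had a mean log2 value of 6.50, at the 52.7th percentile. *Krt17* (1423227_at), a type I keratin of skin appendages and injured epithelium, had a mean log2 value of 6.77, at the 56.1th percentile. *Krt7* (1423952_a_at), a type II keratin of ducts and of the trophoblast, was below the median, with a mean log2 value of 5.37.

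*Krt14* was dim and *Vim* was bright. *Krt14*, the type I keratin of basal cells of the epidermis, had mean log2 values of 4.58 (1423935_x_at) and 3.92 (1460347_at), the second at the 4.49th percentile of all probe sets. The ending _x_at marks a probe set whose oligonucleotides can bind transcripts of other genes, which touches the brighter *Krt14* value. *Vim* had mean log2 values of 11.78 (1450641_at), 11.51 (1438118_x_at) and 11.09 (1456292_a_at), all at or above the 94.8th percentile. The *Vim* signal of these arrays cannot be divided between mESCs and the fibroblasts they grew on.

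**Figure D1:**
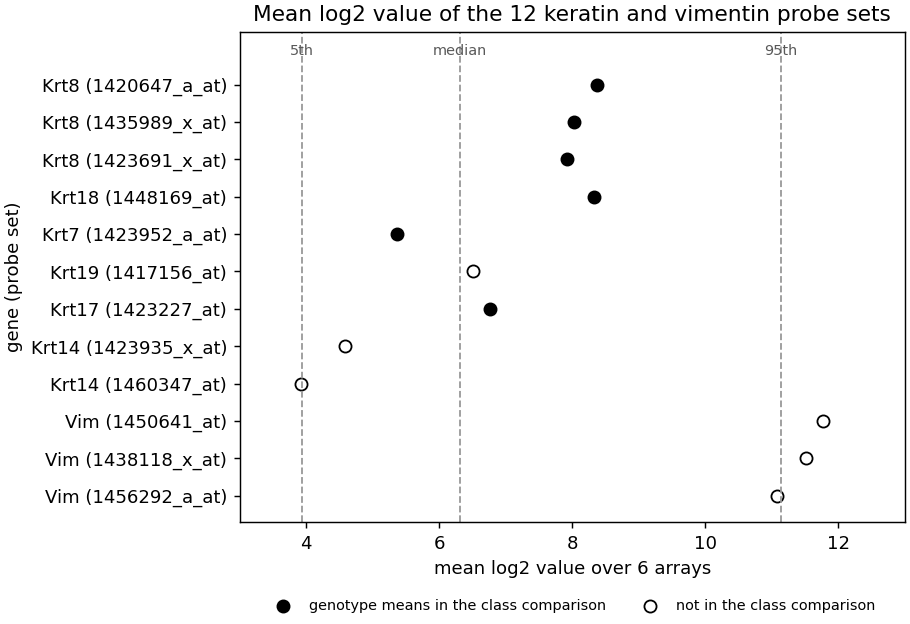
Mean log2 value over the 6 arrays (x axis) of each keratin and vimentin probe set (y axis). Filled points have means by genotype and open points do not, and dashed lines mark the 5th percentile, the median and the 95th percentile of all 33142 probe sets. The *Vim* probe sets lie near or beyond the 95th percentile and a *Krt14* probe set lies at the 5th.

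Means by genotype come from a class comparison that lists 4326 entries, chosen by the authors at a nominal level of 0.05 among 7320 probe sets that passed a filter. Every entry holds a geometric mean intensity, on the linear scale, for WT and for *Alkbh1*-/- mESCs. Its values stand beside other identifiers than their own and were put back by their mean, which placed 4257 entries, 12.8% of all probe sets. Of the 12 keratin and vimentin probe sets, 6 had genotype means, from 4 genes. The listed entries had been picked because they differ, with log2 differences of at least 0.37 in size, so a listed gene had to differ. A gene that is not listed either did not pass the filter, which is not stated, or did not reach the level, and these cannot be told apart for *Krt14*, *Krt19* and *Vim*.

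The targeted gene was lower in the arrays labelled *Alkbh1*-/-. *Alkbh1* had a mean intensity of 761 in WT and 25.7 in *Alkbh1*-/- mESCs at its brightest probe set (1434660_at), a log2 difference, *Alkbh1*-/- minus WT, of −4.89. At its other probe set (1438681_at), the means were 120 and 34.6. The Y-linked *Eif2s3y* had a mean intensity of 751 in WT and 14.9 in *Alkbh1*-/- mESCs, so that the lines also differed in Y-linked transcripts, and this difference cannot be told apart from that of the targeted gene in any value below.

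*Krt8* was lower in *Alkbh1*-/- mESCs at all 3 of its probe sets. At 1420647_a_at, the authors' mean intensity was 567 in WT and 194 in *Alkbh1*-/-, a log2 difference of −1.55. At 1423691_x_at, the means were 406 and 144, a log2 difference of −1.50. At 1435989_x_at, they were 435 and 157, a log2 difference of −1.47. The 3 differences lay within 0.08 of each other on the log2 scale, although the probe sets share a target and are not replicates of the cells. By their ending, 1423691_x_at and 1435989_x_at can also bind transcripts of other genes. In RNA from whole cultures, fewer cells that make *Krt8* and less *Krt8* RNA per cell cannot be told apart.

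*Krt18*, the partner chain of *Krt8*, had a mean intensity of 538 in WT and 194 in *Alkbh1*-/- mESCs. Its log2 difference of −1.47 lay between the lowest and the highest difference of the *Krt8* probe sets, to 2 decimals equal to the smallest. Of the 4257 placed entries, 83 had a lower difference than *Krt8* at its brightest probe set and 104 had a lower difference than *Krt18*, which describes how far down the list the pair stands and is no test. *Krt7*, a further type II chain, had a mean intensity of 53.2 in WT and 32.2 in *Alkbh1*-/- mESCs, a log2 difference of −0.73. It was dim in both genotypes, and 832 entries had a lower difference.

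*Krt17* differed in the other direction. Its mean intensity was 82.4 in WT and 145 in *Alkbh1*-/- mESCs, a log2 difference of 0.81, and 750 entries had a higher difference. Its chain is of type I, as is that of *Krt18*, so the type I chains measured by genotype did not share a direction. With a linear fold over 1.5 counted, 5 of the 6 member probe sets with genotype means were past it on the lower side. Of all placed entries, 30.3% were. The 5 come from 3 genes, and 3 of them are of *Krt8*. The remaining probe set was past it on the higher side, against 33.0%. In either direction, 63.3% of the placed entries were past this fold, and 65.1% of listed genes at their brightest probe set. All 4 listed member genes were past it, and 4 genes are too few to set against those shares.

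**Figure D2:**
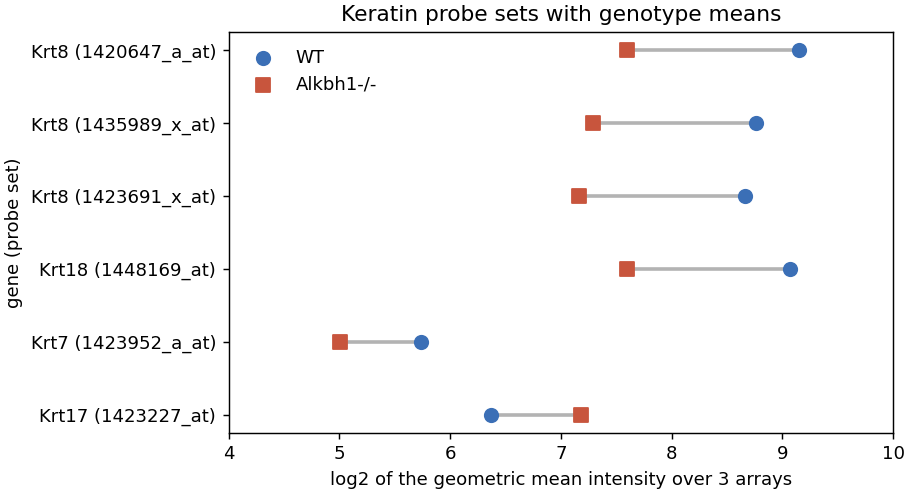
Log2 of the authors' geometric mean intensity (x axis) in WT (circles) and *Alkbh1*-/- mESCs (squares) for each keratin probe set with genotype means (y axis); no spread between arrays was analysed. The 3 *Krt8* probe sets and *Krt18* show lines of similar length, with *Alkbh1*-/- below WT, and *Krt17* runs the other way.

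**Figure D3:**
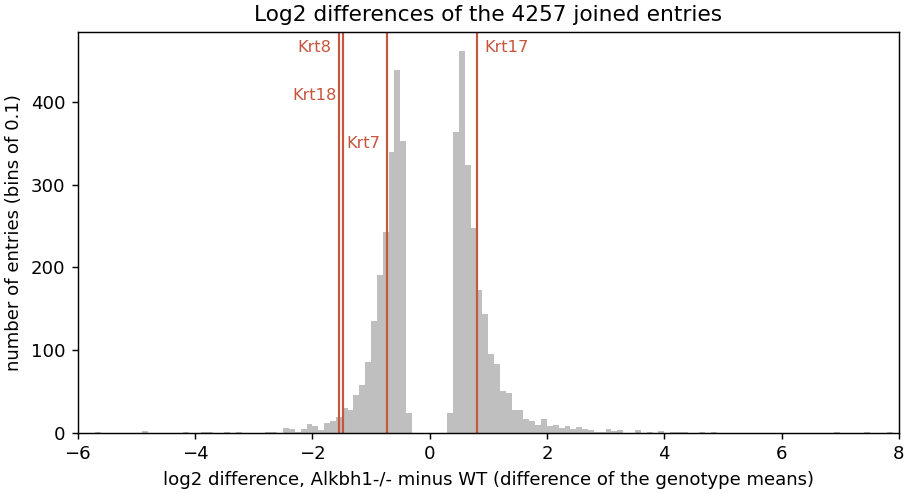
Number of entries (y axis) by log2 difference, *Alkbh1*-/- minus WT (x axis), for all 4257 placed entries of the class comparison, with vertical lines at the brightest probe sets of *Krt8*, *Krt18*, *Krt7* and *Krt17*. No entry lies near 0 because entries were listed for differing, and *Krt8* and *Krt18* lie in the lower tail.

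The other keratins were mostly dim. A further 29 keratin genes had a named probe set, 32 probe sets in all, with mean log2 values from 3.81 to 8.98, and 28 of the 32 were below the median of all probe sets. The symbol deposited for 1 of them, *Krt77*, is that of another gene. Genotype means were found for 1 of the 32, a probe set of *Krt42* (1430208_at), with a mean intensity of 228 in WT and 324 in *Alkbh1*-/- mESCs, a log2 difference of 0.51. The brighter probe set of *Krt42*, 1439765_x_at, had a mean log2 value of 8.98 and was not listed. *Krt5*, the usual type II partner of *Krt14* in basal epidermis, had a mean log2 value of 5.05 and was not listed either, so that both chains of that pair were below the median of the table.

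The lists of related genes below are counted at each gene's brightest probe set. Of the 15357 named genes, 14.8% had genotype means there, and of these 52.8% were lower and 47.2% higher in *Alkbh1*-/- mESCs, with 65.1% past the 1.5-fold size in either direction. With lists this short, the counts describe the genes named and are no test of a list.

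Proteins that tie keratin filaments to cell junctions were examined as a list of 16 genes, of which 4 had genotype means at the brightest probe set. Plakophilin 2 (*Pkp2*), a desmosomal plaque protein, had a mean intensity of 822 in WT and 345 in *Alkbh1*-/- mESCs, a log2 difference of −1.25. Plectin (*Plec*), a linker between filament systems, had a log2 difference of −0.85. Envoplakin (*Evpl*), a protein of desmosomes and of the cornified envelope, had a log2 difference of −0.59. It was dim, with mean intensities of 71.7 in WT and 47.7 in *Alkbh1*-/- mESCs, and its fold of 1.505 is barely past 1.5. The desmosomal cadherin desmoglein 2 (*Dsg2*) had a log2 difference of 1.66, with mean intensities of 435 in WT and 1369 in *Alkbh1*-/- mESCs. The linker list therefore held 3 genes that were lower and 1 that was higher, all past the 1.5-fold size, against 65.1% of all listed genes. Its median log2 difference was −0.72. The median of all placed entries, 0.42, is no yardstick for it, since no entry lies within 0.37 of 0, 2061 were lower and 2196 higher, and the median only marks the inner edge of the larger side. Desmoplakin (*Dsp*) and plakoglobin (*Jup*), which anchor keratins in every desmosome, had mean log2 values of 7.22 and 7.29 and were not listed.

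Of 16 regulators of the epithelial or mesenchymal state, 7 had genotype means, against 14.8% of all named genes. Of the 7, 2 were lower and 5 higher in *Alkbh1*-/- mESCs, where 47.2% of all listed genes were higher. *Ets2*, a transcription factor of the trophoblast, had a log2 difference of 1.57, with mean intensities of 302 in WT and 895 in *Alkbh1*-/- mESCs. *Grhl3*, *Elf3* and *Klf4*, which act in epithelial differentiation, had log2 differences of 0.89, 0.74 and 0.67. *Zeb1*, a repressor of epithelial genes, was at 0.48. *Grhl2* and *Ovol2*, which maintain the epithelial state, were at −0.61 and −0.47. The median log2 difference of the 7 was 0.67.

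Markers of other cells were read beside the keratins, since epithelial or fibroblast cells in the culture would contribute to them. Of 16 feeder fibroblast markers, 6 had genotype means at the brightest probe set. The *Alkbh1*-/- mean was the lower in each of the 6, where 52.8% of all listed genes were lower, with log2 differences from −1.11 to −0.52 and a median of −0.91. *Col1a2* and *Col5a1*, further fibrillar collagen genes, had genotype means only at a dimmer probe set, with log2 differences of −1.06 and −0.83. The summed mean intensity of the 6 markers at their brightest probe sets was 7160 in WT and 3682 in *Alkbh1*-/- mESCs. *Col1a1*, the main chain of fibroblast collagen, had mean intensities of 527 and 253, and *Tagln*, a smooth muscle and fibroblast protein, 2052 and 954. *Fn1* and *Acta2*, fibronectin and smooth muscle actin, were bright, with mean log2 values of 12.06 and 11.18. Neither had genotype means at any probe set. The differences of *Krt8* and *Krt18* were larger in size than each of the 6. Whether fibroblast RNA had a part in the keratin differences was not tested.

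Early lineages that make *Krt8* and *Krt18* were read by their own markers. Of 10 markers of primitive and visceral endoderm, 3 had genotype means. *Dab2*, an endocytic adaptor, was at −0.92 on the log2 scale, *Amn*, which encodes amnionless, at −0.54, and the transcription factor *Sox7* at 0.88. Their summed mean intensity was 171 in WT and 139 in *Alkbh1*-/- mESCs, and all 3 were below the median of all probe sets. The defining factors *Gata4*, *Gata6* and *Foxa2* had mean log2 values of 4.47, 4.45 and 3.92 at their brightest probe sets and were not listed. Of 8 trophectoderm markers, 7 had a probe set and 2 had genotype means, *Gata3* with a log2 difference of 1.08 and *Gata2* with 0.49. Their summed mean intensity was 106 in WT and 169 in *Alkbh1*-/- mESCs, with *Gata3* below that median and *Gata2* above it. *Cdx2*, the defining factor of that lineage, had a mean log2 value of 4.55 and was not listed. *Tfap2c*, which also acts there, had a mean log2 value of 9.38, and it and the other markers with a probe set were not listed either. Whether cells of these lineages had a part in the keratin differences was not tested.

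Of 8 surface epithelium markers, 7 had a probe set and 2 had genotype means. Stratifin (*Sfn*), a 14-3-3 protein of epithelial cells that is known to bind keratins, had mean intensities of 569 in WT and 204 in *Alkbh1*-/- mESCs, a log2 difference of −1.48 that is close in size to those of *Krt8* and *Krt18*. *Perp*, a desmosomal membrane protein, was at 0.57. *Cdh1* and *Epcam*, adhesion proteins of epithelia that mESCs also make, had mean log2 values of 11.67 and 11.96 and were not listed. The label of the cells was checked against 9 stem cell markers, all with a probe set. *Pou5f1*, *Sox2* and *Dppa5a* had mean log2 values of 12.64, 12.66 and 14.49 and were not listed. Of the 4 with genotype means at the brightest probe set, *Nanog*, *Esrrb* and *Zfp42* were higher in *Alkbh1*-/- mESCs and *Utf1* was lower, with a median log2 difference of 0.48. *Fgf4*, a growth factor that mESCs secrete, was higher at its 3 dimmer probe sets, with log2 differences of 0.46, 0.49 and 0.58, and was not listed at the brightest.

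**Figure D4:**
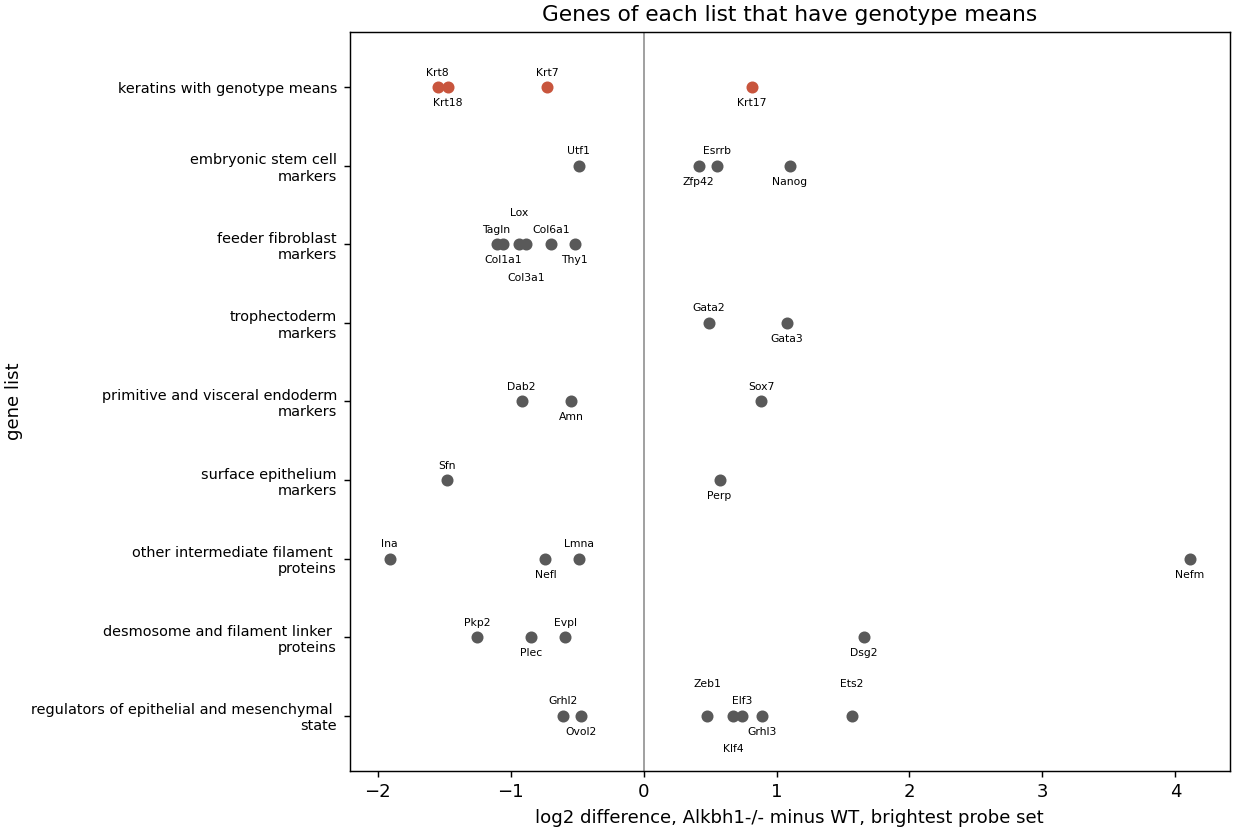
Log2 difference, *Alkbh1*-/- minus WT (x axis), of each gene with genotype means at its brightest probe set, by gene list (y axis); each point is 1 gene. Of the keratins, *Krt8*, *Krt18* and *Krt7* lie left of 0 and *Krt17* lies right of it. The listed fibroblast markers all lie left, and both listed trophectoderm markers and 5 of the 7 regulators lie right. Each of the other lists has genes on both sides.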

How the data were processed

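Total RNA of 3 WT and 3 *Alkbh1*-/- mESC samples was hybridized to Affymetrix mouse genome arrays, which the authors normalized jointly by robust microarray analysis. From these, the authors deposited a table of log2 values, means over all 6 arrays for 33142 probe sets, and a class comparison with the mean linear intensity of each genotype. The methods describe a class comparison for a change in 1 direction on all arrays and of at least 1.5-fold, marked as log2. The study's results give the size as a difference in abundance of over 1.5-fold, and a linear fold of 1.5 was used here. Read as a log2 difference of 1.5, only *Krt8* at its brightest probe set would pass among the keratins. The listed entries were limited to neither size, since their log2 differences start at 0.37 in size. The criterion of 1 direction could not be checked on means. What the filter named in the class comparison's header removed, and how the probe sets of the first table were chosen, is not given in the sources used here. The columns of the authors' own comparisons (fold changes, moderated statistics and p-values) were not used, and no columns of single samples were analysed. The WT column is named C1, which the accompanying description calls a misprint of C3.

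Probe sets were named through RefSeq (GRCm38.p6) by gene identifier, accession, symbol or synonym, 28205 in all (85.1%). Of the 4326 class comparison entries, 4257 were placed by matching the mean of their log2 genotype means to a probe set within 1e-06. In all, 65 entries had no match and 4 had several, and 8 stood beside their own identifier. In 709 of 712 genes with several placed entries the entries shared a direction, against 292 of 714 with the printed identifiers. Differences are log2 of the *Alkbh1*-/- mean minus that of the WT mean. The limma fit planned for single-array values was not run, since such values were not analysed here, and the number of arrays limits the precision. The arrays of each genotype share a line name, so a difference between the lines cannot be told apart from a difference between the genotypes. The genes, lists and thresholds were chosen with earlier results of these data known. The genes named are the 7 members, *Alkbh1*, other keratins and list genes with genotype means, and defining markers. *Eif2s3y* was named after its values were seen. Alternatives were another gene value, tolerance, join, fold and set of entries. Python 3.11.15, pandas 2.3.3, NumPy 2.4.6 and matplotlib 3.10.9 were used.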

Additional observations from a re-analysis of the deposited data

How the results depend on the processing

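Values by genotype rest on how the class comparison was joined. With the printed identifiers, the log2 difference of *Krt8* reversed to 0.78, and those of *Krt18*, *Krt7* and *Krt17* became −0.99, −0.61 and 0.75; under that join the probe sets of *Alkbh1* were at −1.22 and 0.60. A tolerance 5 times narrower or wider left the 4 differences as they were. With the mean over a gene's probe sets, the difference of *Krt8* was −1.51, and the mean log2 values of *Krt8*, *Krt14* and *Vim* were 8.11, 4.25 and 11.46. Without probe sets that can bind other genes, *Krt14* was at 3.92. Past a linear fold of 2 instead of 1.5, 338 entries were lower and 460 higher in *Alkbh1*-/- mESCs, against 1290 and 1403. Among entries at or above the median mean, 802 were lower and 857 higher, and with 1 entry per gene 840 and 833, both from fewer entries. Without X- and Y-linked genes, chosen after seeing the data, 1261 (33.7%) were lower and 1011 (27.0%) higher, so that the larger side changed. No paired analysis was possible because values of single arrays were not analysed, which also left no alternative without a replicate.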

Other observations

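Intermediate filament genes outside the keratins and *Vim* were measured as a list of 14, of which 4 had genotype means at the brightest probe set. The neuronal filament genes did not share a direction. *Nefm*, the medium neurofilament chain, had mean intensities of 25.7 in WT and 443 in *Alkbh1*-/- mESCs, a log2 difference of 4.11. *Nefl*, the light chain, was lower, with 2222 in WT and 1332 in *Alkbh1*-/- mESCs, a log2 difference of −0.74. *Ina*, which encodes internexin, was lower as well, with 791 and 210, a log2 difference of −1.91. *Lmna*, the gene of the nuclear lamins A and C, had a log2 difference of −0.48 at its brightest probe set.

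The probe sets of *Dsg2* and *Pkp2*, both of the desmosome, differed in opposite directions. All 6 probe sets of *Dsg2* had genotype means and were higher in *Alkbh1*-/- mESCs, with log2 differences from 0.70 to 1.68, while the 3 of *Pkp2* with genotype means were lower, from −1.28 to −0.65, and a dim further probe set of *Pkp2* was not listed.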
